A study of Mus musculus with 16 samples.

Results

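The genes described here carry out or steer the breakdown of glucose to pyruvate and lactate (glycolysis), the route back to glucose (gluconeogenesis) and the pentose phosphate pathway. They were taken from a list of 35 genes, and each was represented by its brightest probe set, by mean over the 16 arrays, among the probe sets annotated to 1 gene symbol. Of the 35 genes, 32 were measured in this way, out of 22180 genes in the table. Pfkfb1 and G6pdx had no probe set with a single symbol, and the probe set of Tkt also carried the symbol of a microRNA gene, so these 3 genes were not analysed here.

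RNA came from progenitor cells of the bone marrow of wild-type C57BL/6 mice. Mice drank for 3 weeks either water holding 1 g/L of each of 4 antibiotics (metronidazole, ampicillin, vancomycin and neomycin) or control water, and both waters held 2% sucrose, which every group therefore received. Cells without lineage markers (Sca-1 and Ter119 among them) or CD105 and with c-Kit were sorted into committed monocyte progenitors (cMoPs: CD115 and Ly6C; 3 antibiotic and 2 control arrays), granulocyte-monocyte progenitors (GMPs: high CD16/32, no CD115; 3 antibiotic and 2 control arrays) and common myeloid progenitors (CMPs: intermediate CD16/32, no CD115; 3 antibiotic and 3 control arrays). Age and sex were not stated, nor whether an array came from 1 mouse or a pool, nor whether the 3 progenitors came from the same mice, so the spread behind each p-value may be partly technical. All values are log2 signals, and a difference of 1 is a doubling of the signal.

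In glycolysis hexokinases trap glucose as glucose 6-phosphate, phosphofructokinases commit it to breakdown, and pyruvate kinases make pyruvate at the end. Lactate dehydrogenases convert pyruvate and lactate into each other, and the pyruvate dehydrogenase kinases hold pyruvate back from the mitochondrial citric acid cycle. Gluconeogenesis bypasses the one-way steps with enzymes of its own, among them fructose-bisphosphatase, and the pentose phosphate pathway branches off at glucose 6-phosphate to make NADPH and ribose. Many steps have isoenzymes from separate genes, and blood cells exchange them as they mature: red cells use the Pklr pyruvate kinase and depend on glycolysis, and granulocytes and monocytes rely on glycolysis and on NADPH for their oxidative burst.

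The sort could be followed in some of the genes of its antigens. Fcgr3, for the CD16 part of CD16/32, had group means of 9.28 to 9.81 in GMPs and cMoPs, against 6.65 and 6.68 in CMPs, and Csf1r, for CD115, had 9.29 and 9.39 in cMoPs, against 6.52 to 7.61 in the CMP and GMP groups. Other antigen genes followed it less well. Ly6c2, for Ly6C, had 12.52 and 12.59 in GMPs, close to 12.67 and 12.72 in cMoPs. Ly6c1, also for Ly6C, had 3.91 and 3.98 in GMPs, against 4.46 and 4.56 in cMoPs. Eng, for the CD105 that the gate excluded, had 8.17 and 8.50 in CMPs, against 6.41 to 7.22 in GMPs and cMoPs. Array medians spanned 4.04 to 4.17. Arrays of 1 group correlated across genes at 0.985 to 0.991, and arrays of different groups at 0.961 to 0.991. The number of arrays limits the precision. No group mean of the 32 genes lay below the lower quartile of the arrays (2.89 to 2.99), and Eno2, the neuron-type enolase, came nearest, with array values of 2.94 to 3.71.

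The promoter windows of 4 genes on which the results below turn are shown first. They are the windows of RefSeq's GRCm38.p6 annotation (250 bases before a transcript start to 50 after it), written 5′ to 3′ on the strand of the gene. Capitals mark, on either strand, matches to AGATAA or TGATAA, letters bound by GATA factors of the red cell and mast cell lineages, to ACGTG or GCGTG, the core bound by hypoxia-inducible factors, and to GAGGAA, the core bound by PU.1 of the myeloid lineage. Fbp1 is shown because it alone was called for antibiotics, Pklr and Hk3 because they had the largest differences down and up between GMPs and CMPs, and Pkm because it is the other pyruvate kinase gene.
Fbp1, chr13:62888233-62888532 (minus strand): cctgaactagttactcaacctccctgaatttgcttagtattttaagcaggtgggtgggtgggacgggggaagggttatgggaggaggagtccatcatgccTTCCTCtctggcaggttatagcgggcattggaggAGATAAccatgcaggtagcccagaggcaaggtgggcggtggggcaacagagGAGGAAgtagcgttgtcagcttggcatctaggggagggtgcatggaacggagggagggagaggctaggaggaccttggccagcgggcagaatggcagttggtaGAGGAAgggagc
Pklr, chr3:89135892-89136191 (plus strand): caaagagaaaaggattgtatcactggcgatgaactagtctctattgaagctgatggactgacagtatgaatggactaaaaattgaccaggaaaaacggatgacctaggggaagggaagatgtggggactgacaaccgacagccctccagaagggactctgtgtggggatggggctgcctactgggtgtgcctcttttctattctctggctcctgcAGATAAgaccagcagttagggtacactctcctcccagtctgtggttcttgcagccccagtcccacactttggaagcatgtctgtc
Hk3, chr13:55021336-55021635 (minus strand): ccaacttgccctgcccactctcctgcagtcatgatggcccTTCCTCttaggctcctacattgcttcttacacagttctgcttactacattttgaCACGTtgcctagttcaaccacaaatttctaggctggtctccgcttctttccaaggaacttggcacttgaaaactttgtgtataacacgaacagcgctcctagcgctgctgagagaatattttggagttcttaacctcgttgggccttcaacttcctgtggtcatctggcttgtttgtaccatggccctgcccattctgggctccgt
Pkm, chr9:59656977-59657276 (plus strand): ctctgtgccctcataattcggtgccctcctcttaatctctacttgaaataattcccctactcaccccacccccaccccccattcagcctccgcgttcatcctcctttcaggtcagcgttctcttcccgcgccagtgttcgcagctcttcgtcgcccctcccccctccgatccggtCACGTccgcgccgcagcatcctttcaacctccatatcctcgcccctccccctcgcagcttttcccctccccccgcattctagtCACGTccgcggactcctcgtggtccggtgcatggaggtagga
The Fbp1 window held 3 matches to GAGGAA and 1 to a GATA motif, the Pklr window 1 to a GATA motif, the Hk3 window 1 to GAGGAA and 1 to the hypoxia core, and the Pkm window 2 to the hypoxia core. Pklr and Pkm each had another RefSeq window, and the printed one held more matches. The second window of Pklr held 0 matches, and the other window of Pkm held 1 to a GATA motif and 0 to the hypoxia core. Of the 32 measured genes, 31 had a promoter in the table, in 45 windows. The hypoxia core was found in at least 1 window of 26 of the 31 genes (83.9%), against 46.7% of all 27025 genes. The GATA motifs were found in 8 of 31 (25.8%, against 21% of all genes) and GAGGAA in 10 of 31 (32.3%, against 31.3%). The number of windows per gene and the base composition, which also set how often 5 letters occur, were not matched, and a match describes letters in a window, not a bound site.

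The first question was which of these genes differed between mice given antibiotic water and mice given control water. Fbp1, the fructose-bisphosphatase that turns fructose 1,6-bisphosphate back to fructose 6-phosphate, had a higher signal on every antibiotic array than on any control array of the same progenitor. In CMPs its log2 signals were 5.10, 5.45 and 5.78 after antibiotics, against 3.29, 4.91 and 4.93 on control water. In GMPs they were 7.74, 7.48 and 7.64, against 6.38 and 6.25, and in cMoPs 6.13, 6.39 and 6.30, against 4.47 and 4.82. The gap was smallest in CMPs, and 1 control array, CMP control 1, lay far below the other 2. Of all 22180 genes, 34 had antibiotic arrays above all control arrays in each of the 3 progenitors (0.153%), and Fbp1 was the 1 such gene among the 32.

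Averaged over the 3 progenitors with equal weight, Fbp1 rose by 1.33 ± 0.20 (adjusted p = 0.0149), a 2.52-fold change, at the false discovery rate of 0.2 that the study's design states. It was the only one of the 32 genes called higher in this average, where 0.271% of all genes were called higher, and 0 of the 32 were called lower, where 0.243% of all genes were. Without CMP control 1 the average was 1.15 ± 0.11 (adjusted p = 0.000585), and the difference within CMPs was 0.52 ± 0.18 (adjusted p = 0.578) without that array, against 1.07 ± 0.32 (adjusted p = 0.471) with it.

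Taken singly, no progenitor's difference in Fbp1 passed the rate: it was 1.31 ± 0.36 (adjusted p = 0.433) in GMPs and 1.63 ± 0.36 (adjusted p = 0.248) in cMoPs. The 3 differences were not shown to be unequal (interaction F test, adjusted p = 0.967), and that of cMoPs exceeded that of CMPs by 0.56 ± 0.48. Some genes listed as markers of cell types moved in the same contrast. Several of them were bright in the sorted progenitors themselves. Group means after antibiotics and on control water were 10.58 and 10.59 for F13a1 in cMoPs. They were 12.04 and 11.95 for Car1 in CMPs, and 10.09 and 9.52 for Cpa3 in GMPs. Of 14 markers of monocytes and macrophages, 4 were called lower after antibiotics (Cx3cr1, Ccr2, F13a1 and Mpeg1, with log2 differences of -0.49 to -0.43), and the mean of the 14 spanned 5.76 to 6.05 in antibiotic CMPs, against 6.17 to 6.35 in control CMPs. It spanned 6.69 to 6.82 in antibiotic GMPs, against 6.91 to 6.93 in control GMPs, and 7.17 to 7.36 in antibiotic cMoPs, against 7.27 to 7.32 in control cMoPs. F13a1 was also called within CMPs (-1.15 ± 0.17, adjusted p = 0.0301), with -0.12 ± 0.18 in GMPs and -0.02 ± 0.18 in cMoPs. Of 7 markers of eosinophils, basophils and mast cells 1 was called higher, the mast cell protease gene Cpa3 (0.81 ± 0.12, adjusted p = 0.0143). Of the 7 differences 4 were positive and 3 negative, with Epx, an eosinophil gene, at -0.39 ± 0.19. Their mean overlapped between the waters in CMPs (6.63 to 7.14 after antibiotics, against 6.68 to 7.06), GMPs (8.07 to 8.27, against 7.94 to 8.13) and cMoPs (4.88 to 5.17, against 4.90 to 5.12). Of 9 erythroid markers 1 was called higher, the carbonic anhydrase gene Car1 (0.86 ± 0.11, adjusted p = 0.00517), which also was called within GMPs (1.78 ± 0.20, adjusted p = 0.00308). The erythroid mean, which includes Car1, spanned 5.74 to 5.94 in antibiotic GMPs, against 5.44 to 5.49 in control GMPs. Within GMPs 7 of the 9 differences were positive and 2 negative, with Car1 the largest and Tfrc at -0.40 ± 0.16. The arrays overlapped in CMPs (8.77 to 9.04 after antibiotics, against 8.64 to 8.82 in controls) and in cMoPs (5.06 to 5.34 after antibiotics, against 5.13 to 5.21 in controls). Of 7 dendritic cell markers 1 was called higher, H2-Ab1, which encodes a chain of the antigen-presenting class II molecule (0.43 ± 0.10, adjusted p = 0.192). H2-Aa, for the other chain, averaged 0.07 ± 0.14, with 1.13 ± 0.22 in CMPs, -0.41 ± 0.24 in GMPs and -0.50 ± 0.24 in cMoPs. The mean of the 7 markers spanned 5.43 to 5.79 in antibiotic CMPs, against 5.23 to 5.33 in control CMPs. It overlapped between the waters in GMPs (4.52 to 4.66 after antibiotics, against 4.50 to 4.58 in controls) and cMoPs (4.54 to 4.80 after antibiotics, against 4.63 to 4.65 in controls). The part of these cells in the Fbp1 result was not tested, and in sorted populations a change in the number of cells of a type and a change in RNA per cell cannot be told apart.

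**Figure D1:**
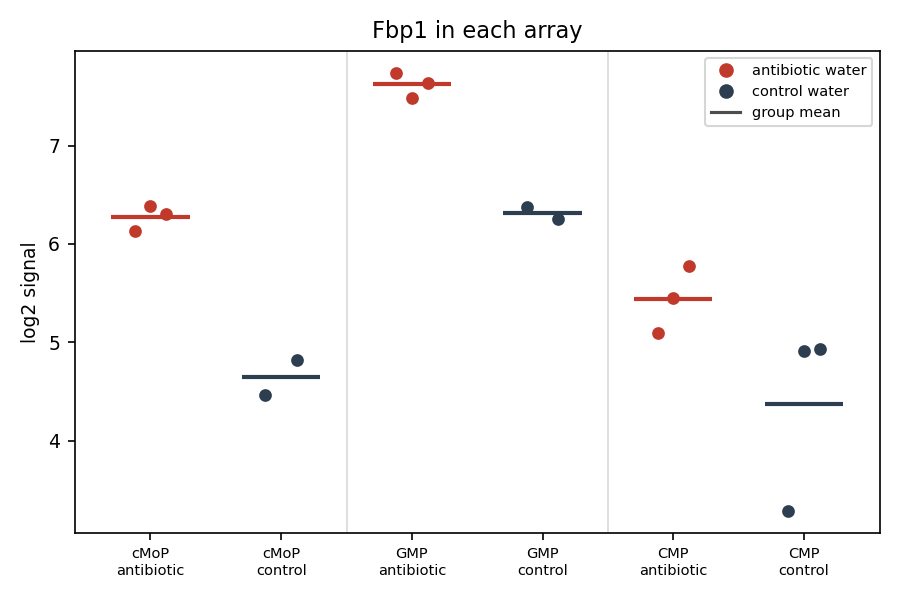
Log2 signal of Fbp1 (vertical axis) in each of the 16 arrays, by progenitor and water, with antibiotic water in red, control water in dark blue and a line at each group mean. Antibiotic arrays lie above the control arrays within CMPs, GMPs and cMoPs, GMPs lie highest, and CMP control 1 is the lowest point at 3.29.

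The brightest probe sets of the remaining 31 genes showed no called difference. Within CMPs alone, GMPs alone and cMoPs alone, 0 of the 32 genes were called at the same rate, where 0.0406%, 0.0721% and 0.131% of all genes were called, and limma gave an unadjusted p under 0.05 to 3, 4 and 4 of the 32, and to 1606, 1662 and 1375 of all 22180 genes. In the average 8 of the 32 had such a p, and 2115 of all genes. The median difference of the 32 genes in the average was -0.04, with 14 positive and 18 negative, beside a median of -0.01 over all genes. Within CMPs it was -0.07 (9 positive and 23 negative, all genes -0.01), within GMPs -0.05 (15 and 17, all genes -0.01) and within cMoPs 0.08 (19 and 13, all genes -0.01). A difference of the antibiotic effect between progenitors was called for 0 of the 32 genes, where it was called for 0.00451% of all genes.

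Among the hexokinases and phosphofructokinases, which act at the start of glycolysis, no gene was called. Hk3, the hexokinase of white blood cells, had 5.59, 5.89 and 5.98 in antibiotic CMPs, against 6.14, 6.13 and 6.60 in control CMPs. In GMPs it had 8.09, 8.11 and 8.12 after antibiotics, against 8.23 and 8.21, and in cMoPs 7.95, 7.81 and 7.98, against 8.06 and 8.03. The groups did not overlap in any of the 3 progenitors, as for 0.252% of all genes in this direction, and the average difference was -0.24 ± 0.09 (adjusted p = 0.395). The averages were -0.18 ± 0.08 (adjusted p = 0.498) for Hk2 and -0.16 ± 0.09 (adjusted p = 0.597) for Hk1, the other hexokinases, and -0.25 ± 0.09 (adjusted p = 0.395), -0.19 ± 0.08 (adjusted p = 0.491) and 0.08 ± 0.14 (adjusted p = 0.906) for Pfkl, Pfkp and Pfkm, the liver-, platelet- and muscle-type phosphofructokinases.

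Pkm, the M-type pyruvate kinase, had 9.50, 9.53 and 9.50 in antibiotic CMPs, against 9.82, 9.80 and 9.81 in control CMPs. The standard deviations within these groups were 0.02 and 0.01, on signals deposited with 2 decimals. The fit over all genes gave -0.30 ± 0.10 (adjusted p = 0.492), with 0.05 ± 0.11 in GMPs and 0.12 ± 0.11 in cMoPs. Its interaction F test had an unadjusted p of 0.0244 (adjusted p = 0.81), the only one under 0.05 among the 32 genes. With a variance of each gene's own, in a plain two-way analysis of variance, Pkm was called for CMPs and for the interaction. Those calls rest on the small spread of Pkm in these few arrays, with group standard deviations of 0.01 to 0.06.

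Of the later steps, Eno3, the muscle-type enolase, averaged 0.42 ± 0.11 (adjusted p = 0.265) and was called under some of the alternative settings. Its signals were 6.78, 6.47 and 6.37 in antibiotic cMoPs, against 5.61 and 6.23 in control cMoPs. In GMPs they were 6.63, 6.43 and 6.49 after antibiotics, against 6.29 and 5.84. In CMPs, where the waters overlapped, they were 6.92, 6.84 and 6.69, against 6.92, 6.44 and 6.56. The averages of Pdk1, a pyruvate dehydrogenase kinase, and Ldhb, the heart-type lactate dehydrogenase subunit, were 0.39 ± 0.14 (adjusted p = 0.397) and 0.26 ± 0.12 (adjusted p = 0.508). The second probe set of Pdk1 gave 0.05 ± 0.08. Pgam1, the phosphoglycerate mutase, averaged -0.15 ± 0.08 (adjusted p = 0.586), and its second, dimmer probe set -0.56 ± 0.13 (adjusted p = 0.183 over all single-symbol probe sets), which passed the rate. The 2 Pgam1 probe sets therefore disagree on the call in the average. By progenitor the dimmer one gave -0.49 ± 0.21 in CMPs, -0.98 ± 0.24 in GMPs and -0.22 ± 0.24 in cMoPs, none of them called.

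The carriers showed averages of 0.02 ± 0.11 for Slc2a1 and 0.18 ± 0.14 for Slc2a3, the glucose transporters GLUT1 and GLUT3, and of -0.16 ± 0.10 and -0.06 ± 0.11 for the lactate carriers Slc16a1 and Slc16a3. The other genes of gluconeogenesis did not share the change of Fbp1 past the test: the mitochondrial phosphoenolpyruvate carboxykinase Pck2 averaged 0.07 ± 0.07 and the glucose 6-phosphatase G6pc3 -0.13 ± 0.08. Pgd and Taldo1, enzymes of the pentose phosphate pathway, averaged -0.08 ± 0.07 and -0.02 ± 0.09. The averages of Pfkfb2, Pfkfb3 and Pfkfb4, which set the level of the activator fructose 2,6-bisphosphate, were 0.07 ± 0.09, 0.05 ± 0.10 and 0.26 ± 0.15. The averages of the other 9 genes (Aldoc, Tpi1, Pgk1, Bpgm, Eno2, Pklr, Ldha, Pdk2 and Pdk3) lay between -0.15 and 0.13.

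**Figure D2:**
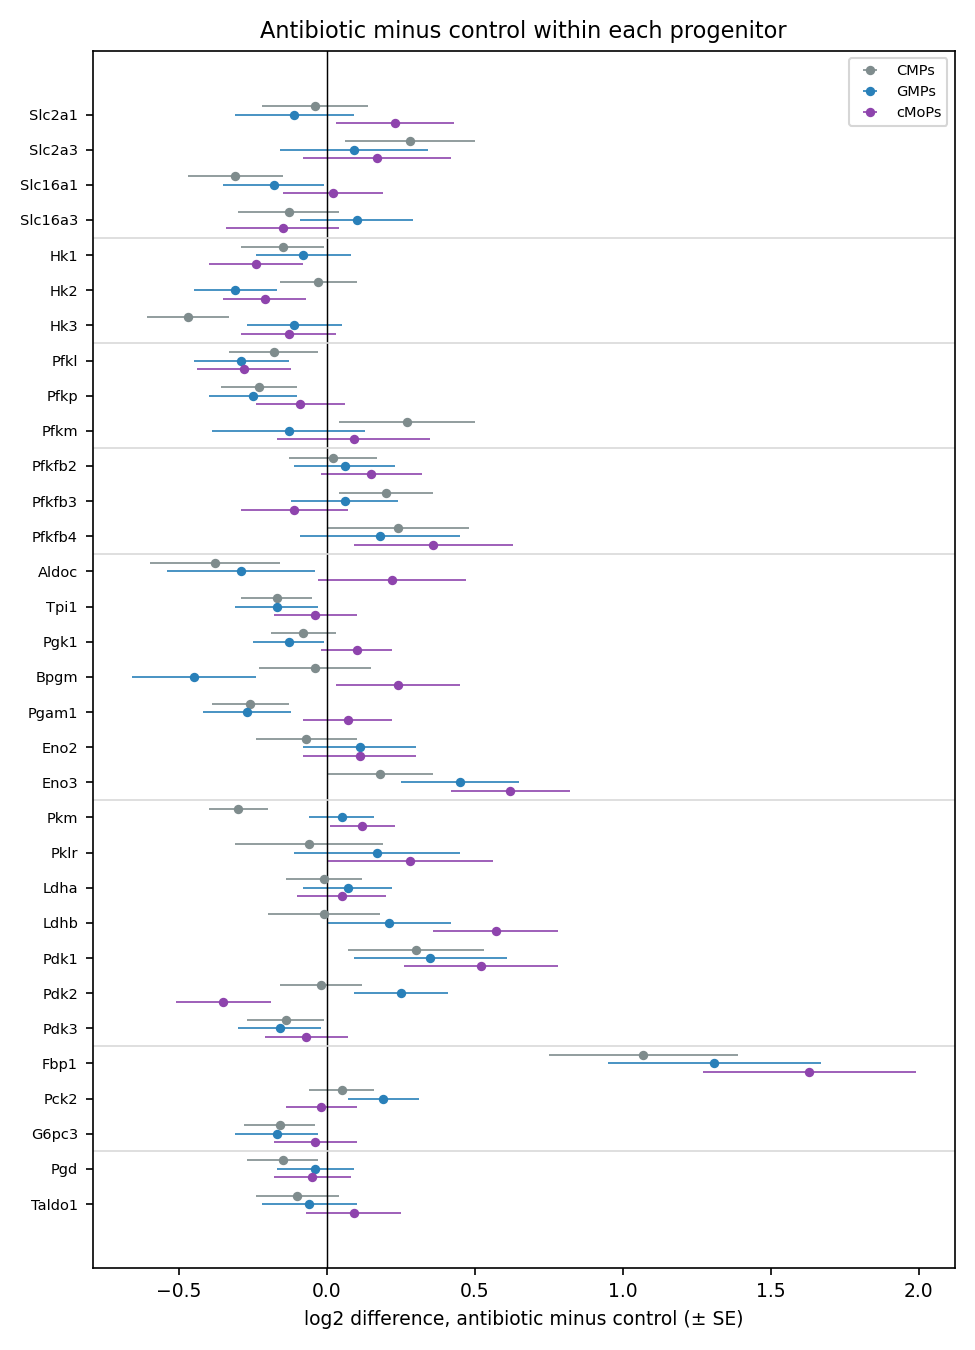
Log2 difference of antibiotic minus control (horizontal axis, ± SE) for each of the 32 genes (vertical axis, grouped by role), within CMPs (grey), GMPs (blue) and cMoPs (purple). Each gene is shown by its brightest probe set only. Fbp1 lies at 1.07, 1.31 and 1.63, to the right of the other genes, which lie between -0.47 and 0.62.

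Outside the 32 genes, the wider sugar pathway held 1 further call. Of 63 other genes of glycolysis, gluconeogenesis, the pentose phosphate pathway and pyruvate entry, 55 were measured. In the average 1 rose and 0 fell (median -0.003), where 0.271% and 0.243% of all genes did. The gene that rose was Khk, the ketohexokinase that phosphorylates fructose (0.43 ± 0.08, adjusted p = 0.0623). It was also called within cMoPs (0.71 ± 0.14, adjusted p = 0.163). None of 16 measured glycogen genes, 32 regulators of sugar metabolism or 15 measured targets of hypoxia-inducible factors was called in the average at a rate of 0.2, while 2, 3 and 1 of them had an unadjusted limma p under 0.05.

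The second question was how the pathway differed between progenitors. More of the 32 genes differed between progenitors than between waters, and isoenzymes of one step often differed in opposite directions. Compared with CMPs, and averaged over both waters at a false discovery rate of 0.05, GMPs had 13 of the 32 genes higher, where 7.87% of all genes were higher, and 8 lower, where 8.17% were. cMoPs had 11 higher and 9 lower than CMPs, where 9.72% and 9.2% of all genes were. Between cMoPs and GMPs, 0 of the 32 were higher in cMoPs and 3 lower, where 2.6% and 2.82% of all genes were. The mean signal of the 32 genes was 6.95 to 7.13 by group, against a median of 4.42 over all genes. The shares of all genes were not matched for signal level. The median difference of the 32 genes was 0.16 for GMPs minus CMPs (all genes 0.03), 0.11 for cMoPs minus CMPs (0.04) and -0.06 for cMoPs minus GMPs (0.01). The GMP and cMoP differences from CMPs share the CMP arrays, so they are not independent. Changes are relative to the deposited normalization, which is not given in the sources used here.

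Pyruvate kinase differed most. Pklr, the liver and red cell pyruvate kinase, had 4.17, 4.89, 4.36, 4.81 and 3.79 in the 5 GMP arrays and 4.09, 4.06, 4.41, 3.55 and 4.26 in the 5 cMoP arrays, against 8.40 at the lowest, a median of 8.57 and 8.81 at the highest over the 6 CMP arrays. All GMP and cMoP arrays lay below all CMP arrays, and the log2 difference was -4.22 ± 0.19 (adjusted p = 2.31e-10) in GMPs and -4.56 ± 0.19 (adjusted p = 6.88e-11) in cMoPs. Pkm ran the other way, with 10.82, 10.80, 10.82, 10.80 and 10.73 in GMPs and 10.91, 10.95, 10.86, 10.83 and 10.75 in cMoPs, against 9.50 at the lowest, a median of 9.66 and 9.82 at the highest in CMPs. It was higher by 1.13 ± 0.07 (adjusted p = 1.5e-08) in GMPs and by 1.19 ± 0.07 (adjusted p = 6.62e-09) in cMoPs, again with no overlap. A level of 1 probe set cannot be set against that of another, so only the changes of the pair are compared.

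Erythroid markers moved with Pklr. Of 9 measured, 8 were called lower in GMPs than in CMPs and 8 in cMoPs than in CMPs, and their mean spanned 5.44 to 5.94 in GMP arrays and 5.06 to 5.34 in cMoP arrays, against 8.64 to 9.04 in CMP arrays. None of them had a group mean below the lower quartile. The differences of GMPs from CMPs were -5.23 ± 0.18 (adjusted p = 1.63e-11) for Ermap, an erythroid membrane protein, and -2.84 ± 0.16 (adjusted p = 3e-09) for Klf1, the erythroid transcription factor. All 7 measured megakaryocyte markers were called lower in GMPs and in cMoPs than in CMPs too, and the part of either lineage in the differences between these progenitors was not tested.

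The hexokinases divided. Hk3 had 8.09, 8.11, 8.12, 8.23 and 8.21 in GMPs and 7.95, 7.81, 7.98, 8.06 and 8.03 in cMoPs, against 5.59 at the lowest, a median of 6.05 and 6.60 at the highest in CMPs, and was higher by 2.11 ± 0.11 (adjusted p = 8.15e-10) in GMPs and 1.92 ± 0.11 (adjusted p = 1.71e-09) in cMoPs. Hk2, the insulin-responsive hexokinase of muscle and of many dividing cells, had 7.70, 7.81, 7.73, 8.05 and 8.07 in GMPs and 7.83, 7.75, 7.93, 8.10 and 7.99 in cMoPs, against 6.53 at the lowest, a median of 6.83 and 7.02 at the highest in CMPs (1.10 ± 0.10, adjusted p = 5.06e-07 for GMPs, and 1.13 ± 0.10, adjusted p = 2.77e-07 for cMoPs). Hk1, the hexokinase of red cells and brain, was the opposite: its arrays spanned 7.13 to 7.37 in GMPs and 6.88 to 7.33 in cMoPs, against 7.77 to 8.34 in CMPs (-0.74 ± 0.11, adjusted p = 9.02e-05 for GMPs, and -0.91 ± 0.11, adjusted p = 9.01e-06 for cMoPs). For each of the 3 genes the CMP arrays were separate from the arrays of both other progenitors.

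Phosphofructokinase was split in the same manner. Pfkp had 7.60, 7.78, 7.74, 8.02 and 7.90 in GMPs and 7.80, 7.79, 8, 7.95 and 7.95 in cMoPs, against 6.30 at the lowest, a median of 6.41 and 6.78 at the highest in CMPs (1.34 ± 0.10, adjusted p = 5.91e-08 for GMPs, and 1.42 ± 0.10, adjusted p = 2.54e-08 for cMoPs). Pfkm had 4.36, 4.43, 4.34, 4.42 and 4.59 in GMPs and 3.94, 4.77, 4.53, 4.16 and 4.48 in cMoPs, against 5.77 at the lowest, a median of 6.11 and 6.75 at the highest in CMPs (-1.72 ± 0.17, adjusted p = 2.27e-06 for GMPs, and -1.80 ± 0.17, adjusted p = 1.15e-06 for cMoPs). All arrays of GMPs and cMoPs were thus above the CMP arrays for Pfkp and below them for Pfkm. Pfkl spanned 7.05 to 7.53 in GMPs, 7.28 to 7.91 in cMoPs and 7.06 to 7.53 in CMPs, overlapping throughout (0.03 ± 0.11, adjusted p = 0.918 for GMPs, and 0.23 ± 0.11, adjusted p = 0.183 for cMoPs).

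**Figure D3:**
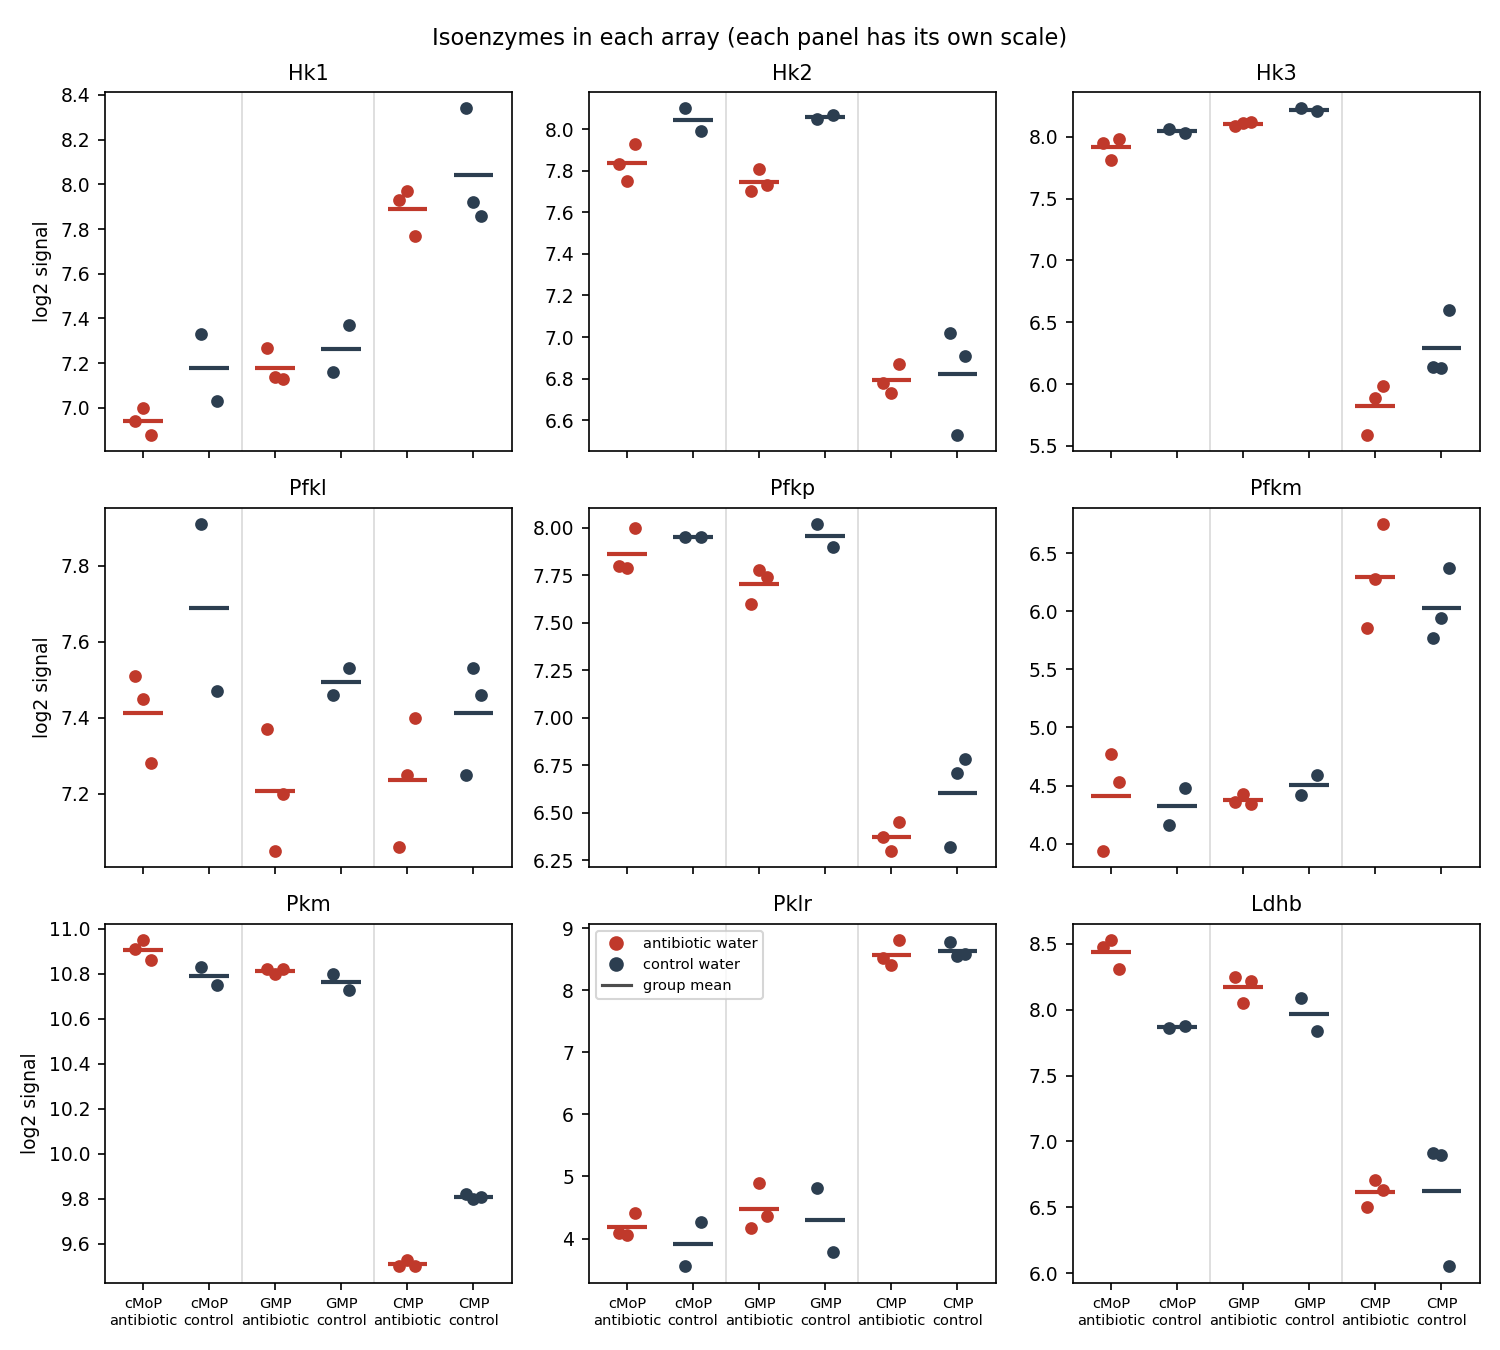
Log2 signals (vertical axis, each panel with its own range) of hexokinases, phosphofructokinases, pyruvate kinases and Ldhb in each array, by progenitor and water, with antibiotic water in red, control water in dark blue and lines at group means. Hk2, Hk3, Pfkp, Pkm and Ldhb lie higher in GMPs and cMoPs than in CMPs, Hk1, Pfkm and Pklr lie lower, and Pfkl overlaps.

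The regulators of phosphofructokinase followed the progenitors differently. Pfkfb3, the isoform whose kinase activity most outweighs its phosphatase activity, spanned 7.15 to 7.58 in GMPs, against 6.24 to 6.90 in CMPs, and was higher by 0.82 ± 0.12 (adjusted p = 0.000163). In cMoPs it spanned 6.57 to 6.81, lower than in GMPs (-0.68 ± 0.13, adjusted p = 0.00431) and not shown to differ from CMPs (0.14 ± 0.12, adjusted p = 0.503). Its 5 cMoP values, 6.57, 6.72, 6.72, 6.81 and 6.74, all lay below the 5 GMP values, 7.27, 7.46, 7.56, 7.15 and 7.58. Pfkfb2 was lower in both (-0.55 ± 0.11, adjusted p = 0.00269 in GMPs, and -0.41 ± 0.11, adjusted p = 0.0182 in cMoPs). Pfkfb4 was not called (0.54 ± 0.18, adjusted p = 0.052 for GMPs minus CMPs, and -0.60 ± 0.19, adjusted p = 0.0858 for cMoPs minus GMPs).

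Along the middle of glycolysis, the called differences were mostly upward and, apart from Pgam1, at most 0.57 in size. Pgam1 was higher by 0.83 ± 0.10 (adjusted p = 1.37e-05) in GMPs and 1.16 ± 0.10 (adjusted p = 2.74e-07) in cMoPs than in CMPs, with 9.27, 9.39, 9.55, 9.73 and 9.61 in GMPs and 10.05, 9.91, 9.75, 9.67 and 9.99 in cMoPs, against 8.52 at the lowest, a median of 8.68 and 8.96 at the highest in CMPs. Its second probe set gave 0.47 ± 0.16 for GMPs (adjusted p = 0.0623), which missed the threshold, and 0.63 ± 0.16 for cMoPs (adjusted p = 0.0112). Pgk1, phosphoglycerate kinase, which makes the first ATP of the pathway, was higher by 0.41 ± 0.08 (adjusted p = 0.00179) in GMPs and 0.57 ± 0.08 (adjusted p = 6.84e-05) in cMoPs. Tpi1, triose phosphate isomerase, was higher in cMoPs (0.37 ± 0.09, adjusted p = 0.00998) and not called in GMPs (0.26 ± 0.09, adjusted p = 0.071). Eno3 was lower in both GMPs (-0.44 ± 0.14, adjusted p = 0.0401) and cMoPs (-0.50 ± 0.14, adjusted p = 0.0167), and the first of these calls was lost under 10 of 27 alternative settings. Aldoc, the brain-type aldolase, Bpgm, which makes the bisphosphoglycerate of red cells, and Eno2 were not called in any of the 3 pairs, and their differences lay between -0.17 and 0.32.

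Of the lactate dehydrogenases, Ldhb had 8.25, 8.05, 8.22, 8.09 and 7.84 in GMPs and 8.48, 8.53, 8.31, 7.86 and 7.88 in cMoPs, against 6.05 at the lowest, a median of 6.67 and 6.91 at the highest in CMPs. It was higher by 1.45 ± 0.14 (adjusted p = 1.37e-06) in GMPs and 1.54 ± 0.14 (adjusted p = 5.66e-07) in cMoPs. The probe set of Ldha, the muscle-type subunit, lay between 4.32 and 4.75 on all 16 arrays, near the arrays' medians, and no pair of progenitors differed past the threshold (smallest adjusted p = 0.549). Whether this probe set reports the Ldha transcript was not tested, so its flat signal does not show that the gene was unchanged. Pdk2 was lower in GMPs (-0.55 ± 0.11, adjusted p = 0.00138) and in cMoPs (-0.47 ± 0.11, adjusted p = 0.00405), and Pdk1 and Pdk3, the other pyruvate dehydrogenase kinases, were not called.

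The carriers of glucose and lactate also divided. Slc2a3 had 4.94, 5.07, 5.00, 4.91 and 4.91 in GMPs and 5.25, 4.87, 4.88, 5.01 and 4.65 in cMoPs, against 5.44 at the lowest, a median of 6.14 and 6.55 at the highest in CMPs. It was lower in GMPs (-1.09 ± 0.17, adjusted p = 0.00019) and in cMoPs (-1.13 ± 0.17, adjusted p = 0.000109). Slc2a1 was not called (0.39 ± 0.13, adjusted p = 0.0613 in GMPs). Slc16a3, the carrier MCT4 known for lactate export, was higher by 0.56 ± 0.13 (adjusted p = 0.00615) in GMPs and 0.50 ± 0.13 (adjusted p = 0.0114) in cMoPs. Slc16a1, the carrier MCT1, had 7.63, 7.76, 8.24, 7.81 and 7.90 in cMoPs, against 8.34, 8.35, 8.21, 8.42 and 8.54 in GMPs, and all but 1 cMoP array lay below every GMP array. It was lower in cMoPs than in GMPs (-0.52 ± 0.12, adjusted p = 0.0181) and than in CMPs (-0.66 ± 0.12, adjusted p = 0.000643). The call against GMPs was lost without GMP control 2 or without cMoP control 1.

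In gluconeogenesis Fbp1 was highest in GMPs, as the plot of Fbp1 by array shows. It was higher by 2.06 ± 0.24 (adjusted p = 1.12e-05) in GMPs than in CMPs, a 4.16-fold difference, lower in cMoPs than in GMPs (-1.51 ± 0.25, adjusted p = 0.00131), and not called between cMoPs and CMPs (0.55 ± 0.24, adjusted p = 0.138). The order of the 6 group means was antibiotic GMPs, control GMPs, antibiotic cMoPs, antibiotic CMPs, control cMoPs and control CMPs. Arrays of control GMPs (6.25 and 6.38) and antibiotic cMoPs (6.13 to 6.39) overlapped, as did those of control cMoPs (4.47 and 4.82) and control CMPs (3.29 to 4.93). The mean of the 7 markers of eosinophils, basophils and mast cells also was highest in GMPs. It spanned 4.88 to 5.17 in cMoP arrays, against 7.94 to 8.27 in GMP arrays, with 6 of 7 called lower in cMoPs and 1 of 7 below the lower quartile in each group. In CMP arrays it spanned 6.63 to 7.14, and the markers were mixed between GMPs and CMPs, with 4 of 7 called higher in GMPs and 1 lower, Gata2 (-2.25 ± 0.16, adjusted p = 3.16e-08), a transcription factor gene of early progenitors and mast cells. The part of these cells in the differences of Fbp1 was not tested. Pck2 was lower in both GMPs (-0.52 ± 0.08, adjusted p = 0.000306) and cMoPs (-0.31 ± 0.08, adjusted p = 0.016) than in CMPs, and G6pc3 was higher in GMPs (0.33 ± 0.09, adjusted p = 0.0211) and not called in cMoPs (0.08 ± 0.09, adjusted p = 0.64).

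Both measured enzymes of the pentose phosphate pathway were higher in GMPs and cMoPs than in CMPs. Pgd, 6-phosphogluconate dehydrogenase, which makes NADPH, had 9.83, 9.95, 10.05, 9.95 and 10.01 in GMPs and 9.91, 9.93, 9.77, 9.91 and 9.93 in cMoPs, against 8.47 at the lowest, a median of 8.71 and 8.90 at the highest in CMPs. It was higher by 1.27 ± 0.09 (adjusted p = 3.43e-08) in GMPs, a 2.41-fold difference, and by 1.20 ± 0.09 (adjusted p = 5.17e-08) in cMoPs, with no overlap. Taldo1, transaldolase of the non-oxidative branch, was higher by 0.44 ± 0.11 (adjusted p = 0.00861) in GMPs and 0.34 ± 0.11 (adjusted p = 0.0358) in cMoPs, a call lost under 9 of 27 alternative settings.

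**Figure D4:**
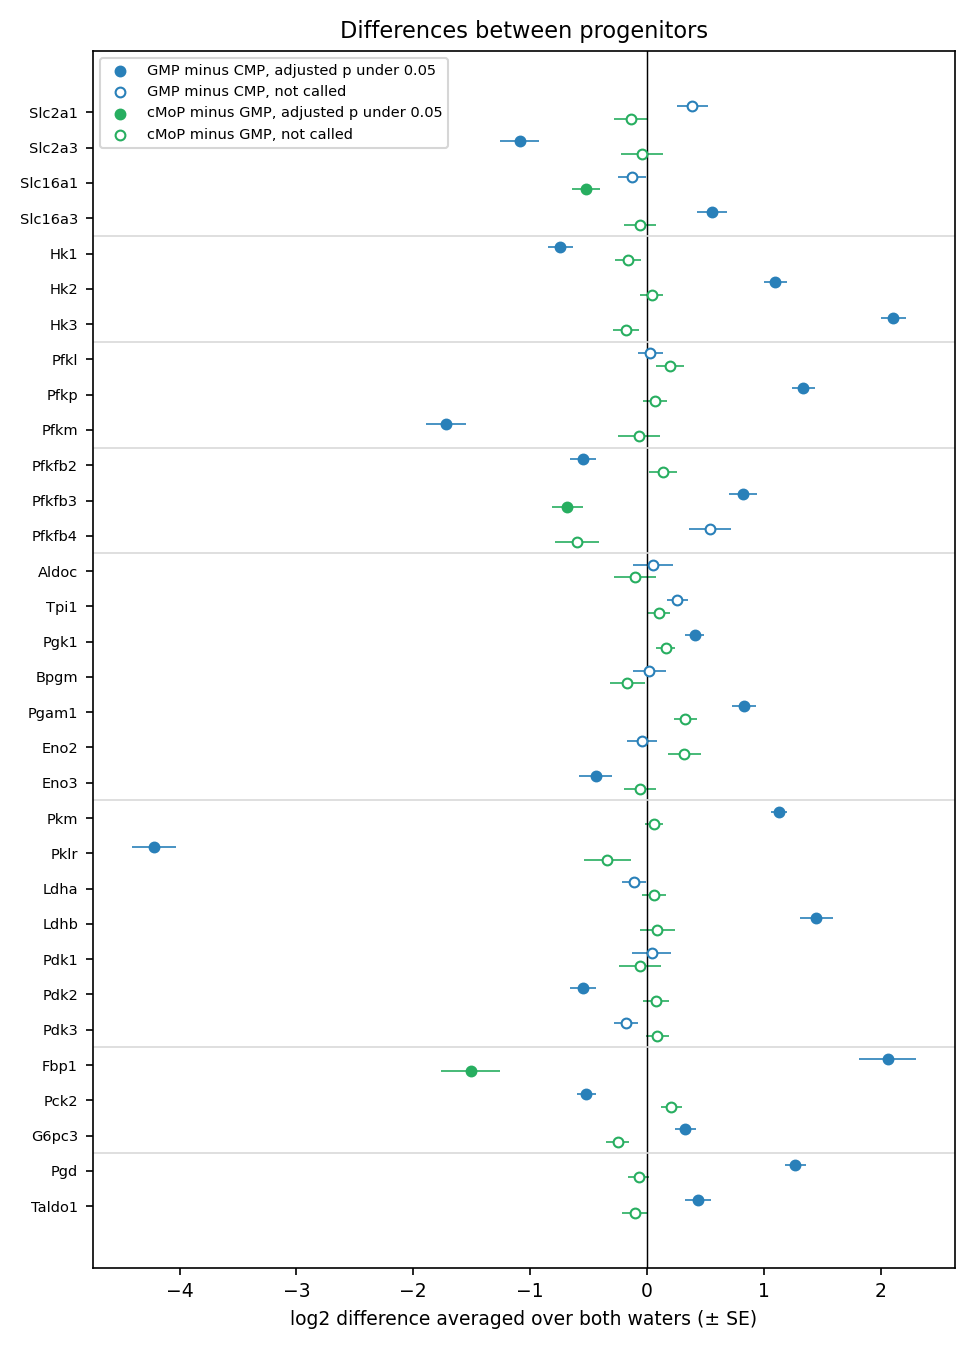
Log2 differences between progenitors, averaged over both waters (horizontal axis, ± SE), for the 32 genes (vertical axis, grouped by role): GMP minus CMP in blue and cMoP minus GMP in green, filled where the adjusted p is under 0.05. GMP minus CMP runs from -4.22 for Pklr to 2.11 for Hk3, and cMoP minus GMP is filled only for Slc16a1, Pfkfb3 and Fbp1, all negative.

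**Figure D5:**
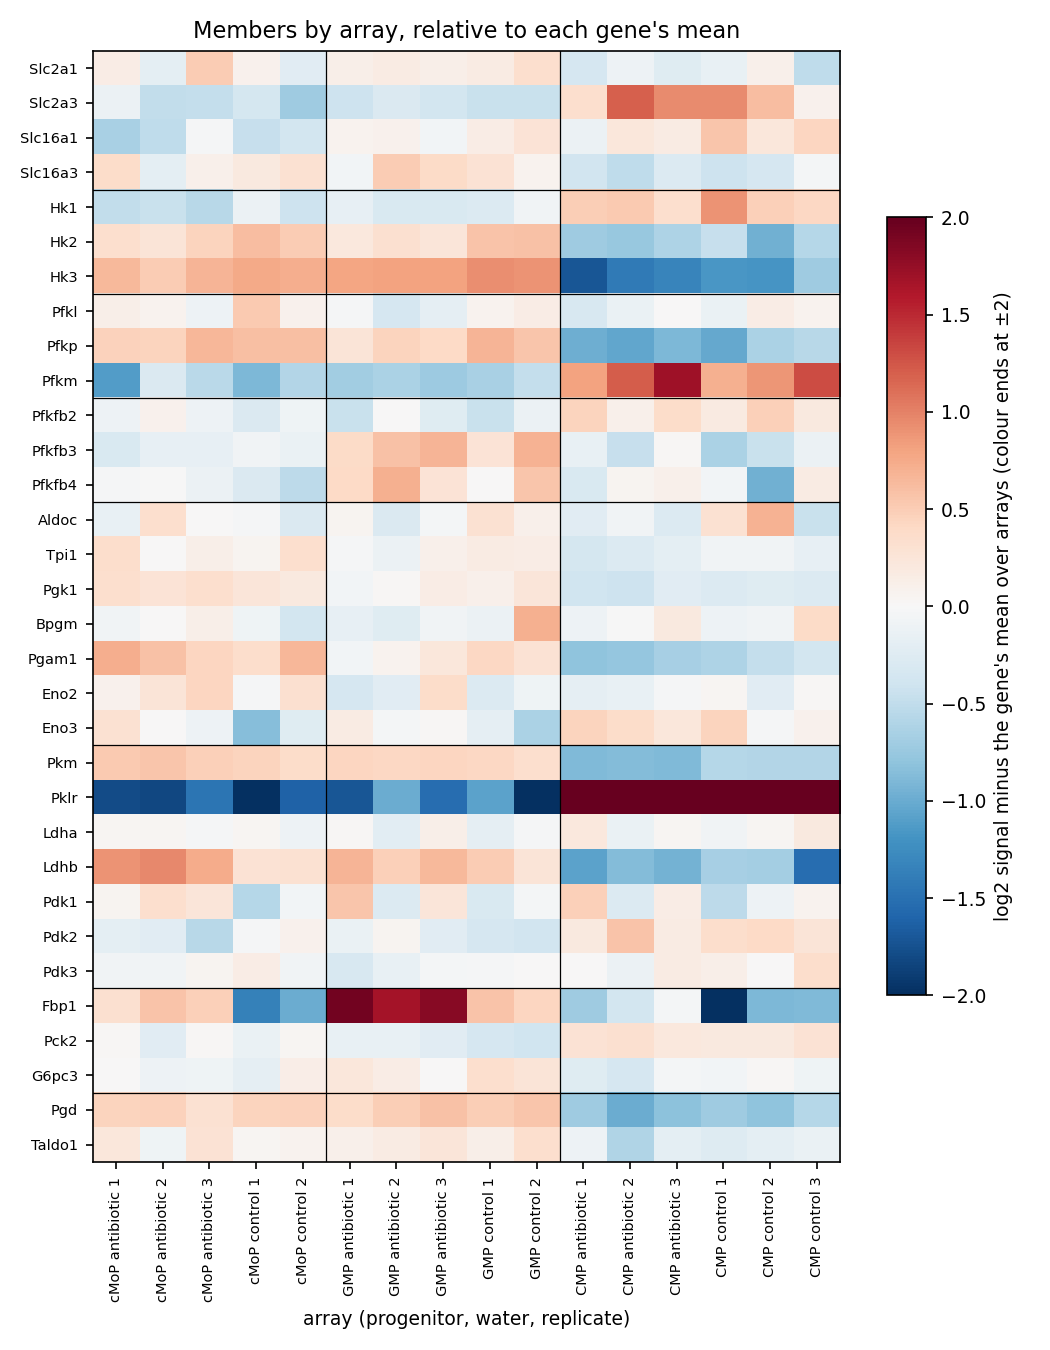
Log2 signal of each gene (rows, grouped by role) in each of the 16 arrays (columns), minus the mean of the gene over all arrays, with red above and blue below that mean and the colour ending at ±2. The 6 CMP columns differ from the other 10 in many rows, most in Pklr and Hk3, and the antibiotic columns stand apart from the control columns within a progenitor mainly in Fbp1.

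The other listed genes of sugar metabolism were counted in the same comparisons. Of all genes, 7.87% were called higher and 8.17% lower in GMPs than in CMPs. The shares were 9.72% and 9.2% for cMoPs minus CMPs, and 2.6% and 2.82% for cMoPs minus GMPs. The counts here and in the next paragraph stand beside these shares. Of the 55 measured other pathway genes, 11 were higher and 5 lower in GMPs than in CMPs (median 0.06), among them Tigar, a fructose-bisphosphatase that lowers glycolysis (1.00 ± 0.14, adjusted p = 9.34e-05), and Minpp1, which removes phosphates from inositol phosphates and bisphosphoglycerate (-1.52 ± 0.08, adjusted p = 1.42e-09). In cMoPs 9 were higher and 3 lower than in CMPs, and 2 were higher and 2 lower than in GMPs. Of 16 measured glycogen genes, 8 were higher and 0 lower in GMPs than in CMPs (median 0.31). They included Gys1, glycogen synthase (1.5 ± 0.15, adjusted p = 2.32e-06), Pygl, glycogen phosphorylase (1.40 ± 0.13, adjusted p = 8.22e-07), Phkb, a phosphorylase kinase subunit (1.20 ± 0.10, adjusted p = 3.76e-07), and Gbe1, the branching enzyme (1.06 ± 0.15, adjusted p = 0.0001). In cMoPs 5 glycogen genes were higher and 0 lower than in CMPs (median 0.225), and 0 were higher and 5 lower than in GMPs (median -0.07).

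Of 32 regulators, 3 were higher and 9 lower in GMPs than in CMPs (median -0.03), where 7.87% and 8.17% of all genes were. Txnip, which restrains glucose uptake, was lower (-1.41 ± 0.10, adjusted p = 5.1e-08), Hif3a, a hypoxia-inducible factor, was lower (-1.32 ± 0.13, adjusted p = 2.14e-06), and Mlx, the partner of the glucose-sensing MondoA and ChREBP, was higher by 1.20 ± 0.10 (adjusted p = 3.7e-07). In cMoPs 4 were higher and 8 lower than in CMPs, with Txnip at -1.64 ± 0.10, adjusted p = 7.02e-09, and 2 were higher and 3 lower than in GMPs. Of 15 measured targets of hypoxia-inducible factors outside the pathway, 4 were higher and 4 lower in GMPs than in CMPs (median 0.23). Vegfa, a growth factor of blood vessels, was higher by 2.05 ± 0.12 (adjusted p = 6.28e-09), and Ddit4 and Ndrg1 were lower (-1.47 ± 0.33, adjusted p = 0.00518, and -1.31 ± 0.16, adjusted p = 1.76e-05). In cMoPs 3 were higher and 4 lower than in CMPs, and 0 were higher and 2 lower than in GMPs, among them Vegfa (-1.61 ± 0.13, adjusted p = 1.11e-06).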

How the data were processed

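The authors deposited log2 signals, 1 for each probe set on each array. The submitters' processing notes name Partek and the Transcriptome Analysis Console. How signals were summarised and normalized is not given in the sources used. Of 41345 probe sets, 23521 had 1 gene symbol, and the brightest per gene left 22180 genes. Values were used as deposited, without a filter. Limma 3.58.1 (R 4.3.3) was fitted to the 6 group means (10 residual degrees of freedom), with Benjamini-Hochberg adjusted two-sided p-values over all genes. Antibiotic contrasts and the interaction were called at 0.2, the rate of the stated design, and progenitor contrasts at 0.05. Errors are standard errors. Genes given in full are Fbp1, genes called for antibiotics, and genes called between progenitors with a log2 difference of at least 1 (the 5 largest where fewer). The genes, lists and tests were chosen with earlier results of these data known. Numbered replicates were not treated as pairs in the main fit. Deviations of same-numbered arrays from their group means correlated at -0.049 to 0.104 over 15 pairs of the same water and different progenitors. Over 7 pairs of the same progenitor and different waters they correlated at -0.027 to 0.026. In groups of 2 or 3 arrays such correlations cannot show whether progenitors shared mice. Alternatives left out each array, changed scaling, filter, probe-set choice, variance model or arrays, and added a block. The block was the replicate number (fixed) or water and replicate number together (random).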

Additional observations from a re-analysis of the deposited data

How the results depend on the processing

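Of the 45 called differences of the 32 genes, 35 were called under every alternative tried, and 0 reversed. In all, 31 of 1214 alternative values missed the threshold, 10 of them for Eno3 in GMPs minus CMPs and 9 for Taldo1 in cMoPs minus CMPs. The Fbp1 average over progenitors kept its call under every alternative, between 1.15 and 1.43. The 1 gene called in the antibiotic average became 2 with brighter genes only and with trended, robust variances (Eno3 higher), and 2 with probe sets averaged per gene or with the dimmest probe set (Pgam1 lower; the last chosen after seeing the data). Within CMPs 0 became 1 (Pkm, lower) with trended, robust variances or the plain two-way analysis of variance, which also called 1 in the interaction (Pkm). Within cMoPs 0 became 1 (Fbp1) with trended, robust variances or the cMoP arrays alone. Leaving out 1 array gave 1 to 2 calls in the average (2 without cMoP control 2, with Eno3), 0 to 1 within GMPs (1 without CMP control 1, Fbp1) and 0 to 2 within cMoPs (2 without cMoP control 2, Eno3 and Fbp1; 1, Fbp1, without CMP control 1, 2 or 3). Without a GMP or cMoP control, that arm holds 1 array, assumed to vary like the other groups. The counts were 20 to 24 for GMPs minus CMPs, 3 to 4 for cMoPs minus GMPs and 19 to 20 for cMoPs minus CMPs under the other settings, and 19 to 22, 2 to 4 and 16 to 20 with 1 array left out. The cause of these moves was not tested.

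With the replicate number as a fixed block, 1 gene was called in the antibiotic average, as without it, at 1.26 ± 0.18 for Fbp1. With a random block of water and replicate number together, 1 gene was called too, at 1.33 ± 0.20 for Fbp1. The estimated correlation within that random block was 0.011. No other count of calls moved by over 1.5 times. The table has no detection calls, so signals near the lower quartiles, such as those of Eno2, or near the medians, such as those of Ldha, are not shown to be above background. A single probe set per gene leaves isoforms unresolved.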
